A study of Mus musculus with 31 samples.

Results

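The miR-30 family is a set of conserved microRNAs that are cut from several hairpin precursors, each of which can give a mature strand from its 5p and its 3p arm. The rows for the arms of miR-30a to miR-30e were taken by name from the deposited count tables, which gave 9 members (5 from 5p arms and 4 from 3p arms) of 1966 microRNAs. They were followed in small RNA libraries from 31 mice of strain C57Bl/6 J in 6 groups, all from the right hippocampus. Mice lacking the serotonin transporter (5-HTT KO) had exercised (KO-exercise, n = 5), had received corticosterone (KO-corticosterone, n = 2) or had received water (KO-water, n = 6). Wild-type mice fell into the same 3 conditions (WT-exercise, n = 5, WT-corticosterone, n = 6, and WT-water, n = 7). Exercise and corticosterone lasted 4 weeks. Corticosterone is the main glucocorticoid stress hormone of rodents, and the serotonin transporter takes serotonin back up from the synapse. The route and dose of corticosterone, the kind of exercise, the knockout allele, and the sex and age of the mice are not given in the sources used here.

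A mature microRNA sits in an Argonaute protein and pairs through its seed, bases 2 to 8 from the 5′ end, with sites that lie mostly in the 3′ untranslated regions of mRNAs, which are then repressed. Strands with one seed can therefore share target sites. The 5p strands of the family share a seed and are abundant in brain. In work on neurons and other cells they have been reported to repress, among others, the autophagy gene Becn1 and the neurotrophin gene Bdnf.

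RefSeq mature sequences (GRCm38.p6) were matched to 6 of the 9 members: mmu-miR-30a-5p, mmu-miR-30a-3p, mmu-miR-30c-5p, mmu-miR-30c-2-3p, mmu-miR-30e-5p and mmu-miR-30e-3p. The other members are mmu-miR-30b-5p, mmu-miR-30d-5p and mmu-miR-30d-3p. In the sequences that follow, capitals mark the seed. The first 4 strands are those with the common 5p seed, to which miR-384-5p, a microRNA outside the family, also belongs, and the last 3 are 3p strands.
mmu-miR-30a-5p: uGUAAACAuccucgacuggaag
mmu-miR-30e-5p: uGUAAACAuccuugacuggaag
mmu-miR-30c-5p: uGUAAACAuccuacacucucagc
mmu-miR-384-5p: uGUAAACAauuccuaggcaaugu
mmu-miR-30a-3p: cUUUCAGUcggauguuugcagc
mmu-miR-30e-3p: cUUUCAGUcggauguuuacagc
mmu-miR-30c-2-3p: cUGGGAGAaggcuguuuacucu

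Counting positions from 1 at the 5′ end, mmu-miR-30e-5p differs from mmu-miR-30a-5p by C13U alone, and mmu-miR-30e-3p differs from mmu-miR-30a-3p by G18A alone. Reads of these near-identical pairs could be split between the rows by the counting, so their separate values are uncertain. Whether this also holds for mmu-miR-30b-5p, mmu-miR-30d-5p and mmu-miR-30d-3p was not checked, as their sequences were not matched. mmu-miR-30a-5p and mmu-miR-30c-5p have the same first 12 bases and differ after them. The matched hairpins lie in 2 clusters. Mir30a (chr1:23272269-23272339, plus strand) lies 19.4 kb from Mir30c-2 (chr1:23291701-23291784, plus strand), which is inside an exon of the long non-coding RNA Gm27028. Mir30c-1 (chr4:120769534-120769622, minus strand) lies 3.0 kb from Mir30e (chr4:120772606-120772697, minus strand). Both are in an intron of Nfyc, which encodes a subunit of the CCAAT-binding factor NF-Y, on the same strand as that gene. Mir30b and Mir30d, whose mature strands were not matched, lie 3.7 kb apart on chromosome 15. Mature mmu-miR-30c-5p is identical from Mir30c-1 and Mir30c-2, so its count pools both loci. The 3 other miR-30 rows of the tables were rare: mmu-miR-30c-1-3p averaged 13.0 counts per 1e6 counts (CPM), mmu-miR-30b-3p 4.55 CPM and mmu-miR-30f, which lies antisense to Mir30e, 0.321 CPM.

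The libraries held 1011285 to 4052174 counts. As the tables hold microRNAs alone, loss of the transporter transcript was not checked. All 4 neuronal marker microRNAs (such as miR-124-3p) were counted in every group, with a summed level of 312600 to 420400 CPM per library. The 6 KO-water libraries fell into 2 sets. Replicates 3, 4 and 6 are the only KO-water libraries in the authors' deposited table for the genotype comparison, and 1, 2 and 5 stand outside it; a further knockout column of that table is KO-exercise 4 by the labels. Markers of oligodendrocytes (4 of 4 counted, miR-219a and miR-338 arms) summed to 1925 to 2788 CPM in KO-water 3, 4 and 6 and to 4956 to 6286 CPM in KO-water 1, 2 and 5. Markers of microglia and immune cells (4 of 4 counted, miR-142a arms, miR-223-3p and miR-150-5p) summed to 7023 to 7887 CPM in the first set and to 2367 to 3159 CPM in the second. Endothelial markers summed to 15780 to 20300 CPM in the first set and to 6273 to 9059 CPM in the second, and red blood cell markers to 503 to 636 CPM in the first and to 1195 to 1627 CPM in the second. The labels give nothing that separates the sets, so the counts of calls, the mmu-miR-30c-5p, mmu-miR-30d-5p and miR-384-5p differences, the 5p shares and the miR-30a arm ratio are given with all 6 KO-water libraries and with either set.

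The family took up 2.56% to 5.00% of all microRNA counts of a library (median 4.30%, 31 libraries), nearly all of it from 5p arms: the 3p arms made up a median of 0.735% of the members' counts. Levels are CPM scaled by TMM over all libraries; a mature microRNA is counted as 1 read, with no length scaling, and how efficiently each strand was ligated was not tested. By mean level over the 31 libraries, mmu-miR-30c-5p was 12th of 1966 microRNAs at 14863 CPM and mmu-miR-30d-5p was 19th at 9927 CPM. mmu-miR-30a-5p followed at 8081 CPM, mmu-miR-30e-5p at 4424 CPM and mmu-miR-30b-5p at 4324 CPM. The 3p strands were far lower: mmu-miR-30a-3p had 185.4 CPM, mmu-miR-30e-3p 85.1 CPM, mmu-miR-30c-2-3p 35.5 CPM and mmu-miR-30d-3p 4.51 CPM.

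Part of this order was fixed and part of it moved with the group. mmu-miR-30a-5p exceeded mmu-miR-30e-5p in 31 of 31 libraries, and mmu-miR-30b-5p exceeded mmu-miR-30a-3p in 31 of 31. mmu-miR-30e-5p and mmu-miR-30b-5p did not differ beyond their spread, the first being higher in 16 of 31 libraries. mmu-miR-30c-5p exceeded mmu-miR-30d-5p in 5 of 5 KO-exercise, 2 of 2 KO-corticosterone and 3 of 6 KO-water libraries. Among wild types it did so in 5 of 5 WT-exercise, 6 of 6 WT-corticosterone and 0 of 7 WT-water libraries. The 3 KO-water libraries in which it was higher are replicates 3, 4 and 6.

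Of the strands with an edgeR adjusted p of at least 0.05 in each of the 4 treatment comparisons, mmu-miR-30a-5p and mmu-miR-30e-5p were the most abundant. mmu-miR-30a-5p averaged 8417 ± 1092 CPM in KO-exercise, 8245 ± 91.9 CPM in KO-corticosterone and 7319 ± 1633 CPM in KO-water, and 7774 ± 1159 CPM in WT-exercise, 8694 ± 477 CPM in WT-corticosterone and 8143 ± 1089 CPM in WT-water (SD, n = 5, 2, 6, 5, 6 and 7). mmu-miR-30e-5p averaged 4821 ± 597 CPM in KO-exercise, 5161 ± 346 CPM in KO-corticosterone and 3946 ± 697 CPM in KO-water, and 4493 ± 393 CPM in WT-exercise, 4816 ± 286 CPM in WT-corticosterone and 3956 ± 835 CPM in WT-water. Within KO-water, replicates 3, 4 and 6 held the 3 lowest levels of both strands, down to 5219 and 3045 CPM. The same 3 libraries were also the lowest of their group for mmu-miR-30a-3p (116 to 127 CPM, against 149 to 208 CPM in KO-water 1, 2 and 5) and mmu-miR-30b-5p (2245 to 2952 CPM, against 3816 to 4715 CPM) and, at a few CPM, for mmu-miR-30d-3p. They were not the 3 lowest for mmu-miR-30c-5p, mmu-miR-30c-2-3p (20.5 to 35.4 CPM, against 21.9 to 31.4 CPM) or mmu-miR-30e-3p (54.6 to 85.2 CPM, against 62.2 to 82.8 CPM).

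**Figure D1:**
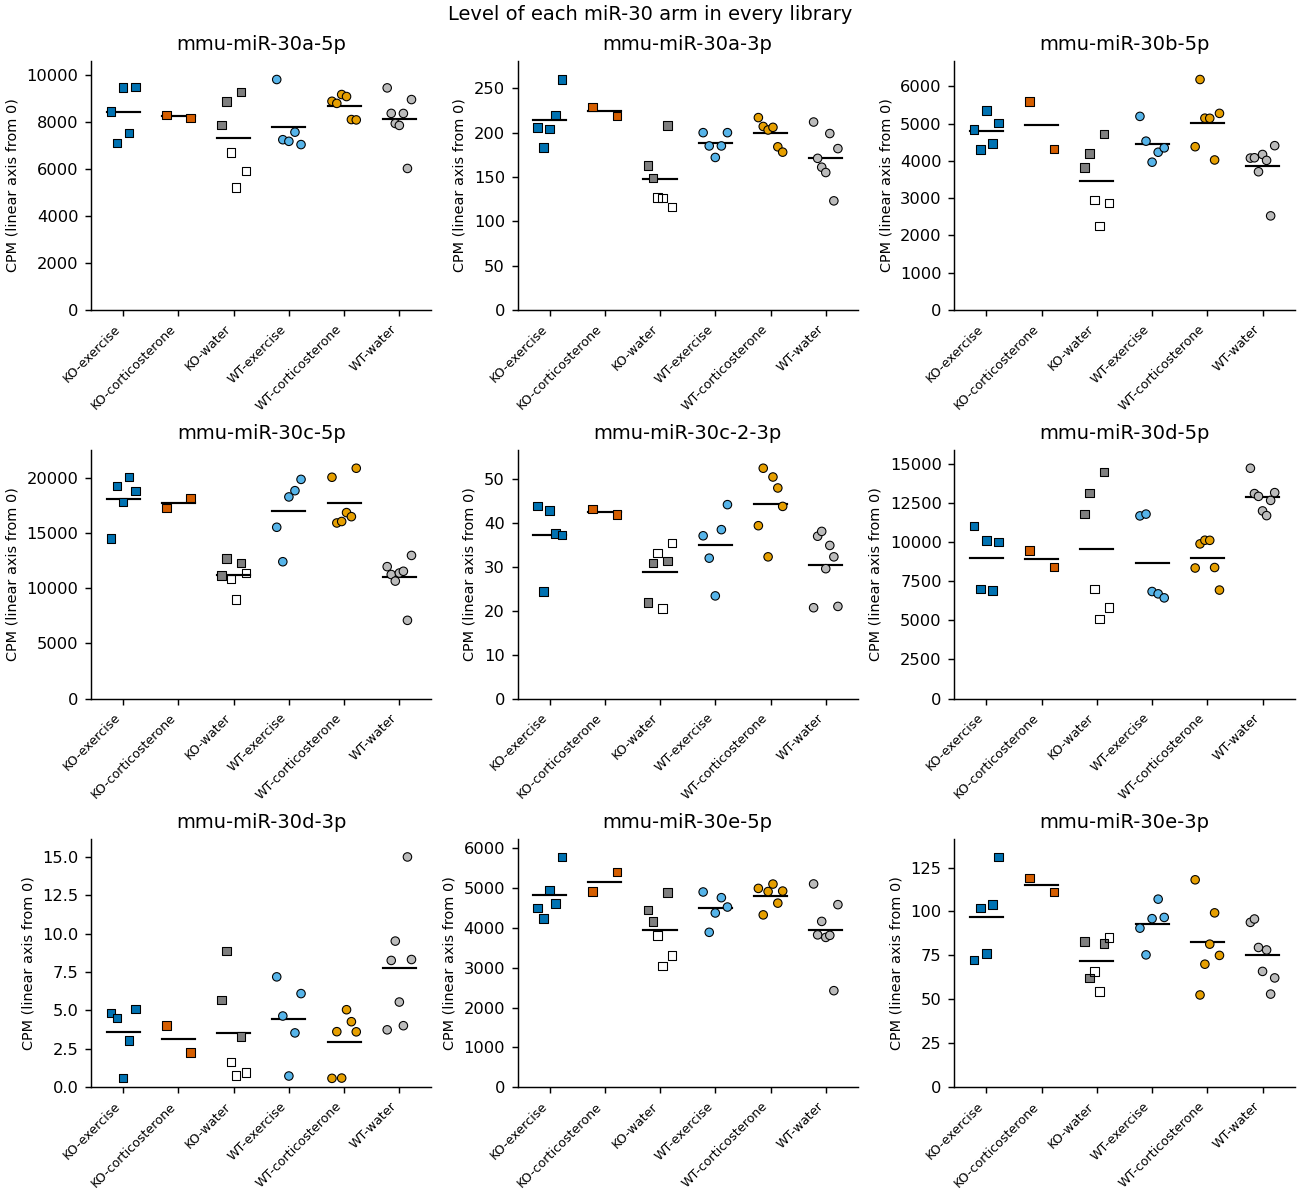
TMM-scaled CPM of the 9 miR-30 arms (linear axes from 0) in each of 31 libraries, by group; squares are KO, circles WT, open squares KO-water 3, 4 and 6, and bars are group means. The 18 exercise and corticosterone libraries had 12387 to 20853 CPM of mmu-miR-30c-5p, against 7081 to 12957 CPM in the 13 water libraries, and mmu-miR-30d-5p was split within KO-water.

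Corticosterone in wild-type mice changed 5 of 9 members, 3 higher and 2 lower, by edgeR's quasi-likelihood test with Benjamini-Hochberg adjustment over the 547 microRNAs tested; 41.9% of those microRNAs were called at an adjusted p below 0.05, so the share among the members is near the background. The members did not move one way. mmu-miR-30c-5p had 15897 to 20853 CPM in WT-corticosterone (median 16652), against 7081 to 12957 CPM in WT-water (median 11363). All 6 WT-corticosterone libraries lay above all 7 WT-water libraries, as for 6.95% of the microRNAs tested, and the fitted log2 fold change was 0.75 ± 0.14 (SE, adjusted p = 0.000946). mmu-miR-30d-5p moved the other way and had 6936 to 10123 CPM in WT-corticosterone (median 9133), against 11697 to 14727 CPM in WT-water (median 12928). Again the groups did not overlap, with every corticosterone library the lower, as for 6.58% of the microRNAs tested, and the log2 fold change was -0.48 ± 0.12 (SE, adjusted p = 0.00444), at the threshold in a joint fit of all 6 groups (adjusted p = 0.0503). In bulk tissue, fewer cells that hold a microRNA and less of it per cell cannot be told apart.

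Of the less abundant strands, mmu-miR-30c-2-3p, the 3p strand of the Mir30c-2 hairpin, had 32.3 to 52.5 CPM in WT-corticosterone (median 45.9), against 20.7 to 38.1 CPM in WT-water (median 32.3). Its log2 fold change was 0.60 ± 0.18 (SE, adjusted p = 0.0151), and 5 of 6 corticosterone libraries exceeded every water library. mmu-miR-30b-5p had 4023 to 6183 CPM in WT-corticosterone (median 5143), against 2522 to 4407 CPM in WT-water (median 4073). The log2 fold change of 0.44 ± 0.14 (SE, adjusted p = 0.0206) was lost in 8 of 13 leave-one-out fits (WT-corticosterone 2, 3 or 6, or WT-water 2, 3, 4, 5 or 6); over the 13 fits it lay between 0.28 and 0.47 with adjusted p of up to 0.0839. It was also lost without scaling factors (0.30, edgeR adjusted p = 0.0777), with no filter on low counts and with a block for the replicate number. mmu-miR-30c-2-3p was likewise not called without scaling factors (0.46, edgeR adjusted p = 0.0693) or with no filter on low counts (edgeR adjusted p = 0.0749). mmu-miR-30d-3p was a strand of few reads: 1, 8, 1, 8, 8 and 8 counts in WT-corticosterone 1 to 6, against 13, 19, 28, 24, 13, 26 and 21 counts in WT-water 1 to 7. Its log2 fold change was -1.26 ± 0.44 (SE, edgeR adjusted p = 0.0304). It had a test result in 10 of the 13 leave-one-out fits and was called in 9 of these. The call was lost without WT-corticosterone 1 (edgeR adjusted p = 0.0625). The 4 members that were not called (mmu-miR-30a-5p, mmu-miR-30a-3p, mmu-miR-30e-5p and mmu-miR-30e-3p) had log2 fold changes of 0.14 to 0.33. The median log2 fold change was 0.26 over the members and 0.06 over all microRNAs tested.

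With exercise in wild-type mice 2 of 9 members were called, at a background of 32.5% of the 553 microRNAs tested: mmu-miR-30c-5p was higher and mmu-miR-30d-5p lower. mmu-miR-30c-5p had 15508, 12387, 18254, 18821 and 19843 CPM in WT-exercise 1 to 5, against 7081 to 12957 CPM in WT-water (median 11363). WT-exercise 2 lay inside the water range and the other 4 lay above it; the log2 fold change was 0.70 ± 0.17 (SE, edgeR adjusted p = 0.00801). mmu-miR-30d-5p had 11679, 11794, 6843, 6695 and 6437 CPM in WT-exercise 1 to 5, against 11697 to 14727 CPM in WT-water (median 12928). WT-exercise 3, 4 and 5 were far below the water range and WT-exercise 1 and 2 were at its lower edge. Its log2 fold change of -0.51 ± 0.18 (SE, edgeR adjusted p = 0.0366) was called in 2 of 12 leave-one-out fits, those without WT-exercise 1 or 2. It missed the threshold without WT-exercise 3, 4 or 5 or any single WT-water library (-0.70 to -0.42 over the 12 fits, highest adjusted p 0.109). The call was also lost with no filter on low counts and in the joint fit of all 6 groups. With a block for the replicate number neither strand was called. The 7 members not called ranged from -0.68 (mmu-miR-30d-3p) to 0.37 (mmu-miR-30e-3p). WT-water was the comparison group for both treatments, so these results are not independent of each other.

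Some marker lists also differed between the treated and the water groups of wild types. The medians of neuronal markers were 347500 and 370900 CPM in WT-exercise and WT-corticosterone, against 351600 CPM in WT-water. For markers from outside the brain they were 304 and 294 CPM, against 310 CPM. Oligodendrocyte markers summed to 2000 to 6807 CPM in WT-exercise (median 2548) and to 2241 to 6705 CPM in WT-corticosterone (median 2881), against 5973 to 7410 CPM in WT-water (median 6682). Microglia and immune markers summed to 2426 to 9939 CPM in WT-exercise (median 5804) and to 2477 to 8265 CPM in WT-corticosterone (median 5167), against 2295 to 3345 CPM in WT-water (median 2377). Red blood cell markers summed to 425 to 1812 CPM in WT-exercise (median 576) and to 482 to 1155 CPM in WT-corticosterone (median 678), against 1176 to 2421 CPM in WT-water (median 1551). Endothelial markers summed to 8113 to 16330 CPM in WT-exercise (median 11200) and to 8134 to 15360 CPM in WT-corticosterone (median 12260), against 7608 to 9120 CPM in WT-water (median 8192). The medians of vessel muscle markers were 6191 and 5513 CPM in WT-exercise and WT-corticosterone, against 6100 CPM in WT-water. Choroid plexus and epithelial markers varied widely within groups. They summed to 4465 to 7638 CPM in WT-exercise (median 5158) and to 5269 to 26760 CPM in WT-corticosterone (median 9477). In WT-water they summed to 5134 to 20940 CPM (median 6355). No marker of the 8 lists was at 0 in a whole group, and the part of these shifts in the miR-30 differences was not tested. Sample codes start with G or H, a letter that the labels do not explain; with it as a covariate, mmu-miR-30c-5p changed by 0.68 (exercise) and 0.75 (corticosterone) and mmu-miR-30d-5p by -0.51 and -0.50, all still called by edgeR.

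**Figure D2:**
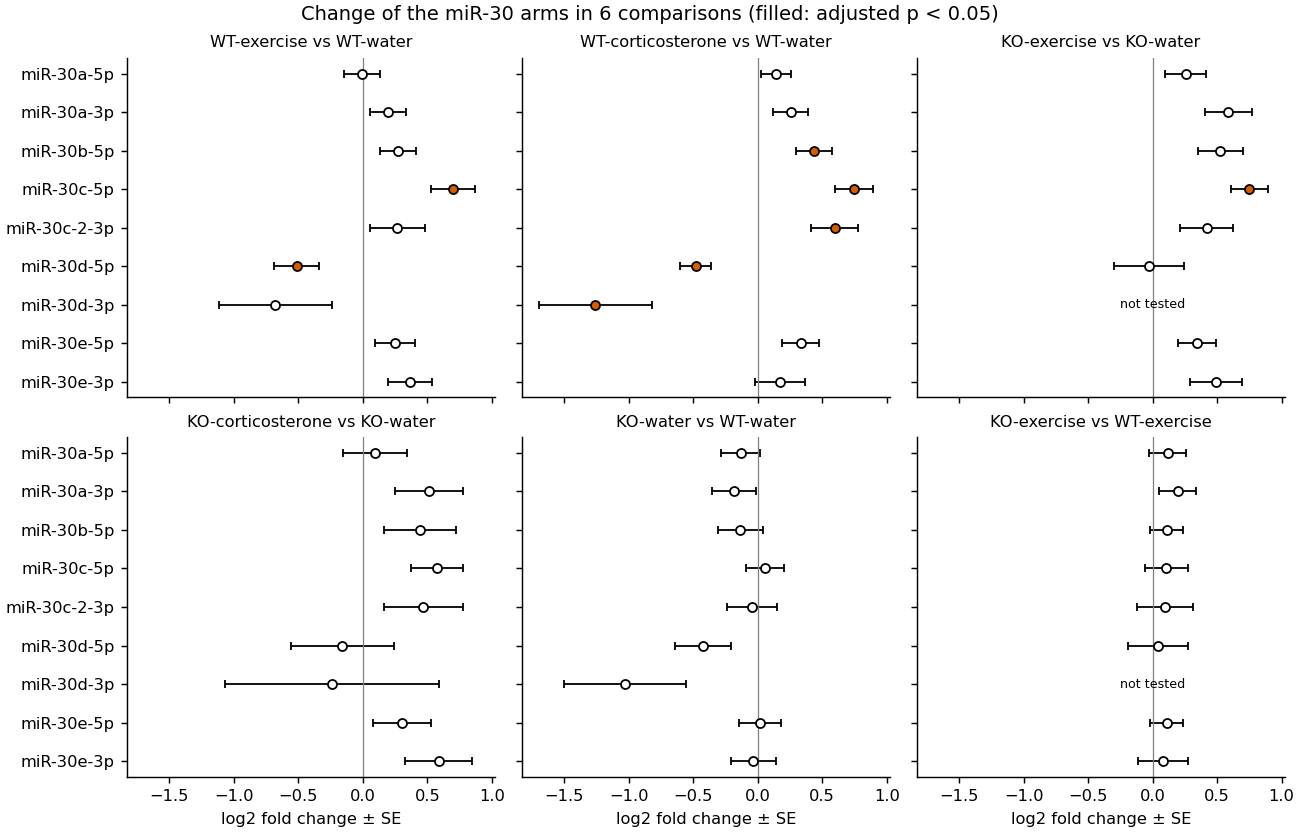
Log2 fold change (first-named group over the second) ± SE from edgeR for the 9 miR-30 arms in 6 comparisons; filled points have an adjusted p below 0.05. mmu-miR-30c-5p lies at 0.57 to 0.75 in the 4 treatment comparisons, and mmu-miR-30d-5p is lower in the wild-type ones.

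With exercise in KO mice 1 of the 8 members tested was called (mmu-miR-30d-3p did not pass the filter on low counts), at a background of 4.02% of 523 microRNAs. mmu-miR-30c-5p had 14504, 19254, 17789, 20082 and 18769 CPM in KO-exercise 1 to 5, against 8984 to 12684 CPM in KO-water (median 11253). All 5 exercised libraries lay above all 6 water libraries, those of either set, as for 3.82% of the microRNAs tested. The log2 fold change was 0.75 ± 0.15 (SE, edgeR adjusted p = 0.0102), and it was not called without KO-exercise 2 (adjusted p = 0.0533) or with no filter on low counts (adjusted p = 0.131). With a block for the replicate number the call was lost too. With KO-water 3, 4 and 6 alone it was 0.74 (adjusted p = 0.00509), and with KO-water 1, 2 and 5 alone it was 0.62 (adjusted p = 0.0225). Of the other 7 members, mmu-miR-30a-3p had the highest log2 fold change, 0.59 ± 0.18 (SE, edgeR adjusted p = 0.115), and mmu-miR-30d-5p the lowest.

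mmu-miR-30d-5p had no settled direction with exercise in KO mice. It had 11026, 6988, 10093, 6900 and 10005 CPM in KO-exercise 1 to 5. KO-water 3, 4 and 6 had 6988, 5078 and 5827 CPM and KO-water 1, 2 and 5 had 11785, 13142 and 14476 CPM, so 3 exercised libraries fell between the sets and KO-exercise 2 and 4 lay at the top of the lower one. The log2 fold change was -0.03 ± 0.27 (SE, edgeR adjusted p = 0.981) with all 6 water libraries, 0.52 ± 0.16 (adjusted p = 0.0302) against KO-water 3, 4 and 6, and -0.52 ± 0.18 (adjusted p = 0.0614) against KO-water 1, 2 and 5. Oligodendrocyte markers summed to 2233 to 4774 CPM in KO-exercise and 1925 to 6286 CPM in KO-water, and microglia and immune markers to 3605 to 6396 CPM in KO-exercise and 2367 to 7887 CPM in KO-water. Endothelial markers summed to 10400 to 12260 CPM in KO-exercise and 6273 to 20300 CPM in KO-water, and red blood cell markers to 380.0 to 926 CPM in KO-exercise and 503 to 1627 CPM in KO-water; the part of these lists was not tested. Against replicates 3, 4 and 6 alone, 6 of 8 members were called, all higher, with 32.8% of all microRNAs called; against 1, 2 and 5 alone, mmu-miR-30c-5p was the 1 of 9 called, with 21.7% of all microRNAs called.

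Corticosterone in KO mice was measured in 2 libraries. edgeR called 0 of 9 members, with 0.521% of 576 microRNAs called and 40 of the 576 at an unadjusted p below 0.05; DESeq2 called 1 member, mmu-miR-30c-5p. mmu-miR-30c-5p had 17255 and 18180 CPM in KO-corticosterone 1 and 2, against 8984 to 12684 CPM in KO-water. The log2 fold change was 0.57 ± 0.20 (SE, edgeR adjusted p = 0.547; DESeq2 0.60, adjusted p = 0.00889). It was 0.67 ± 0.15 (SE, edgeR adjusted p = 0.0232) against KO-water 3, 4 and 6 and 0.50 ± 0.19 (SE, adjusted p = 0.142) against KO-water 1, 2 and 5. Both treated libraries lay above all KO-water libraries for 5 of 9 members (mmu-miR-30c-5p, mmu-miR-30a-3p, mmu-miR-30c-2-3p, mmu-miR-30e-5p and mmu-miR-30e-3p) and below them for 0 of 9; of the 576 microRNAs tested, 10.4% lay wholly above and 3.65% wholly below. mmu-miR-30d-5p, at 9478 and 8428 CPM, again lay between the KO-water sets. Choroid plexus and epithelial markers summed to 7297 to 16730 CPM in KO-corticosterone and 5280 to 18890 CPM in KO-water. Oligodendrocyte markers summed to 2333 to 3737 CPM, against 1925 to 6286 CPM, and microglia and immune markers to 4548 to 6567 CPM, against 2367 to 7887 CPM. The part of these lists was not tested. Against KO-water 3, 4 and 6 alone, 4 of 8 members were called, all higher (19.2% of all microRNAs called), and against 1, 2 and 5 alone 0 of 9 (7.08% of all microRNAs called, 156 microRNAs at an unadjusted p below 0.05).

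Whether the response to exercise differed by genotype was tested as an interaction. edgeR called 0 of 9 members and 0% of 571 microRNAs (101 at an unadjusted p below 0.05; DESeq2 was not run on interactions). For mmu-miR-30c-5p the KO response minus the WT response was -0.01 ± 0.21 (SE, adjusted p = 0.970), and for mmu-miR-30d-5p it was 0.41 ± 0.32 (SE, adjusted p = 0.524). For corticosterone edgeR also called 0 of 9 members and 0% of 630 microRNAs (65 at an unadjusted p below 0.05), with -0.08 ± 0.22 (SE, adjusted p = 0.929) for mmu-miR-30c-5p and 0.39 ± 0.35 (SE, adjusted p = 0.718) for mmu-miR-30d-5p. With errors of this size, a p above the threshold does not show that the genotypes respond alike. With KO-water 3, 4 and 6 as the only KO-water libraries, 4 of 9 members were called for exercise (42.3% of all microRNAs) and 2 of 9 for corticosterone (34% of all microRNAs), mmu-miR-30d-5p among both at 1.09 and 1.05. With KO-water 1, 2 and 5, edgeR called 0 of 9 members and 0% of all microRNAs for each treatment (18 and 13 microRNAs at an unadjusted p below 0.05).

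The genotype itself was compared in water and in exercised mice. Between KO-water and WT-water edgeR called 0 of 9 members and 0% of 545 microRNAs, although 179 microRNAs had an unadjusted p below 0.05 and DESeq2 called 115, no member among them. The members' log2 fold changes ran from -1.03 for mmu-miR-30d-3p to 0.06 for mmu-miR-30c-5p. mmu-miR-30d-5p stood at -0.42 ± 0.22 (SE, edgeR adjusted p = 0.182). With KO-water 3, 4 and 6 alone, the set in the deposited genotype table, 2 of 9 members were called, at a background of 60.9% of all microRNAs: mmu-miR-30d-5p at -0.91 ± 0.10 (SE, adjusted p = 5e-06) and mmu-miR-30d-3p at -2.48 ± 0.63 (SE, adjusted p = 0.00356). With KO-water 1, 2 and 5 alone, mmu-miR-30d-5p stood at 0.01 ± 0.12 (SE, adjusted p = 0.984), and 0 of 9 members and 0% of all microRNAs were called by edgeR (24 at an unadjusted p below 0.05). mmu-miR-30c-5p was not called with either set (0.13 and 0.12). Its mean level was 10401 CPM in KO-water 3, 4 and 6 and 10961 CPM in WT-water, the other direction from the fit. Each fit computed its own scaling factors, while the CPM share a joint scaling over all libraries, so small differences can change sign between them. Between KO-exercise and WT-exercise, edgeR called 0 of 8 members and 0% of 517 microRNAs (5 at an unadjusted p below 0.05, and 0 by DESeq2), and the members lay between 0.04 and 0.20.

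The make-up of the 5p pool, given here as medians with no test, differed between the treated and the water groups of wild types, where the pair of dominant strands had moved in different directions. mmu-miR-30c-5p made up 44.7% of the summed 5p counts in WT-exercise and 38.0% in WT-corticosterone, against 27.6% in WT-water. mmu-miR-30d-5p made up 16.8% in WT-exercise and 21.0% in WT-corticosterone, against 32.3% in WT-water. In KO mice the difference depended on the KO-water set. mmu-miR-30c-5p made up 38.2% in KO-exercise and 39.4% in KO-corticosterone, against 32.0% in all of KO-water, 36.6% in KO-water 3, 4 and 6 and 28.5% in KO-water 1, 2 and 5. mmu-miR-30d-5p made up 20.4% in KO-exercise and 19.9% in KO-corticosterone, against 26.2% in all of KO-water, 20.7% in KO-water 3, 4 and 6 and 30.5% in KO-water 1, 2 and 5. For both strands the treated KO libraries overlapped KO-water 3, 4 and 6 and did not overlap KO-water 1, 2 and 5. mmu-miR-30a-5p stayed within 16.7% to 21.4% over all 31 libraries and mmu-miR-30b-5p within 8.21% to 13.7%.

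**Figure D3:**
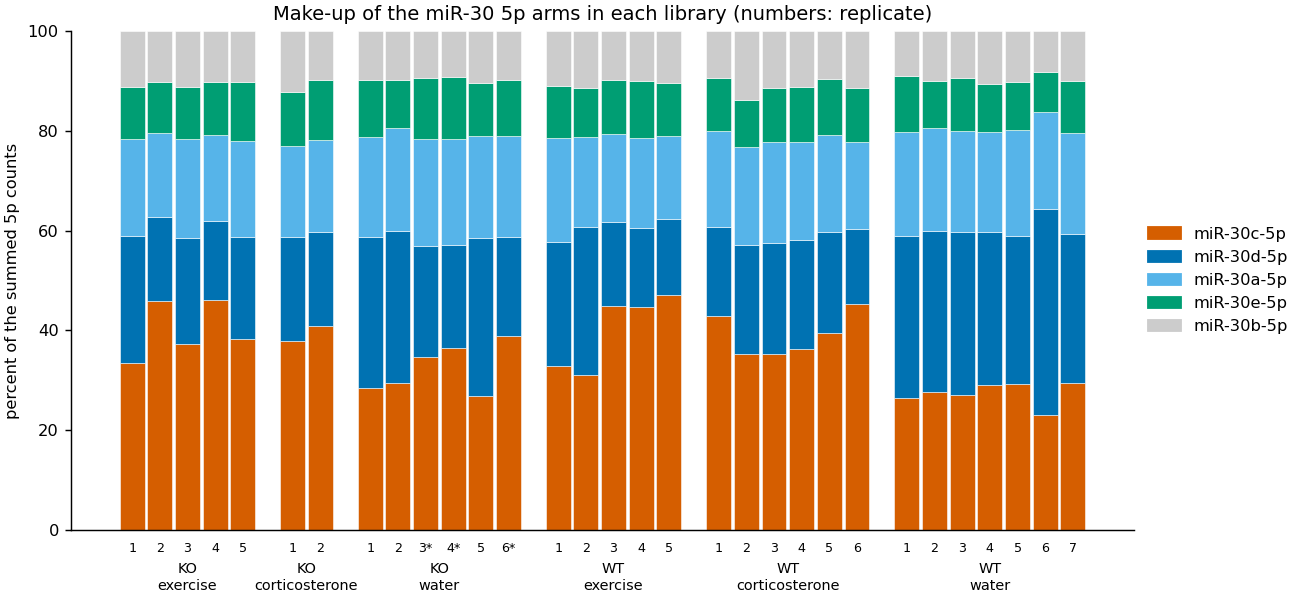
Percent of the summed 5p counts given by each of the 5 5p strands, 1 bar per library, numbered by replicate within its group; asterisks mark KO-water 3, 4 and 6. mmu-miR-30c-5p spans 23.0% to 47.0% and mmu-miR-30d-5p 15.1% to 41.2% over the 31 libraries.

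The ratio of mmu-miR-30c-5p to mmu-miR-30d-5p counts within a library, which needs no scaling factor, had a median of 1.88 in KO-exercise, 1.99 in KO-corticosterone and 1.26 in KO-water, and of 2.67 in WT-exercise, 1.81 in WT-corticosterone and 0.857 in WT-water. WT-exercise 1 and 2, with the high mmu-miR-30d-5p, held the low end of their group, down to 1.05. In KO-water it was 1.55 to 1.95 in replicates 3, 4 and 6 and 0.847 to 0.965 in replicates 1, 2 and 5. The high ratio of KO-water 3, 4 and 6 came with low mmu-miR-30d-5p, while their mmu-miR-30c-5p, at 10835, 8984 and 11384 CPM, stayed in the range of the other water libraries. The summed 5p level of these 3 libraries was 24570 to 31299 CPM, against 39059 to 45631 CPM in KO-water 1, 2 and 5. Low mmu-miR-30d-5p was thus seen with high mmu-miR-30c-5p in treated libraries and without it in these 3 water libraries.

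miR-384-5p, encoded on the X chromosome (chrX:105344332-105344354, minus strand), is the other microRNA of the tables with the 5p seed among those with a RefSeq mature sequence. It has been studied in hippocampal long-term potentiation. It averaged 975 CPM and had a log2 fold change of 0.73 ± 0.19 (SE, edgeR adjusted p = 0.0056) in WT-corticosterone and 0.67 ± 0.20 (SE, adjusted p = 0.0223) in WT-exercise, both over WT-water. In KO mice it stood at 0.42 ± 0.17 (SE, edgeR adjusted p = 0.254) with exercise and at 0.18 ± 0.26 (SE, adjusted p = 0.867) with corticosterone. Against KO-water 3, 4 and 6 it was 0.15 (adjusted p = 0.499) with exercise and 0.02 (adjusted p = 0.949) with corticosterone, and against KO-water 1, 2 and 5 it was 0.57 (adjusted p = 0.0353) and 0.39 (adjusted p = 0.233). Its level in KO-water 3, 4 and 6 was 1001, 774 and 1140 CPM, against 704, 779 and 826 CPM in KO-water 1, 2 and 5. The other strand of the hairpin, mmu-miR-384-3p, did not rise alongside. It had 274 to 534 CPM in WT-corticosterone (median 385) and 219 to 553 CPM in WT-exercise (median 320). In WT-water it had 372 to 715 CPM (median 505).

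**Figure D4:**
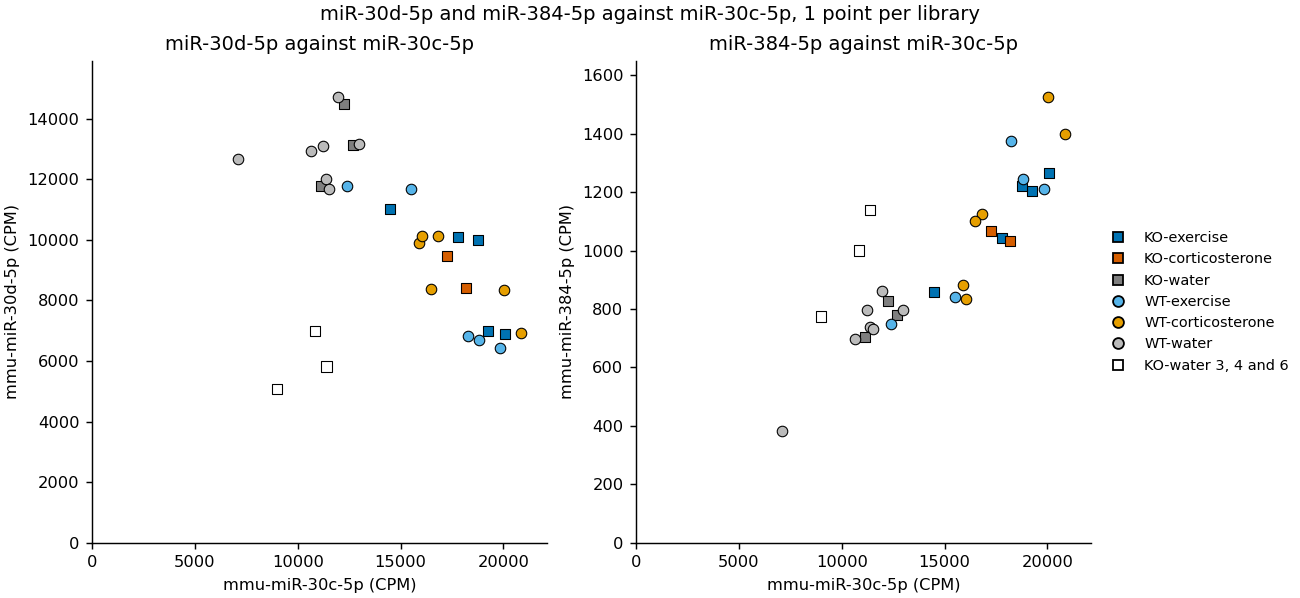
Left, mmu-miR-30d-5p against mmu-miR-30c-5p, and right, mmu-miR-384-5p against mmu-miR-30c-5p, both in TMM-scaled CPM, 1 point per library; squares are KO, circles WT, and open squares KO-water 3, 4 and 6. These 3 libraries, at 5078 to 6988 CPM of mmu-miR-30d-5p and 8984 to 11384 CPM of mmu-miR-30c-5p, stand apart from the other points on the left.

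Patterns across the 31 libraries were compared by the root-mean-square difference of log2(CPM + 1), each microRNA taken relative to its own mean, over 463 microRNAs with a mean of at least 10 CPM. This is a description, since the values share libraries and scaling. Outside the family, mmu-miR-30c-5p was most like miR-26b-5p (0.209), miR-384-5p (0.210) and miR-335-5p (0.214). mmu-miR-30d-5p was most like miR-136-5p (0.189), miR-345-5p (0.190) and miR-300-3p (0.202), and mmu-miR-30a-5p was most like miR-125b-2-3p (0.159), miR-3068-5p (0.165) and miR-300-5p (0.191). Within the family, mmu-miR-30a-5p and mmu-miR-30e-5p were close (0.160), and mmu-miR-30e-5p was closest to mmu-miR-30a-3p (0.150). mmu-miR-30c-5p and mmu-miR-30d-5p, at 0.670, were less alike than mmu-miR-30c-5p was to the median microRNA (0.586).

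The balance of the arms of a hairpin was read from the log2 ratio of 3p to 5p counts, with 0.5 added to each, for miR-30a, miR-30d and miR-30e. The 3p strand gave a median of 2.21% of the counts of both arms for miR-30a, 1.87% for miR-30e and 0.0440% for miR-30d over 31 libraries. For miR-30a the mean log2 ratio was -5.36 ± 0.17 in WT-exercise and -5.45 ± 0.06 in WT-corticosterone, against -5.57 ± 0.10 in WT-water (SD, n = 5, 6 and 7). In KO mice it was -5.29 ± 0.17 in KO-exercise and -5.20 ± 0.03 in KO-corticosterone, against -5.62 ± 0.18 in KO-water (SD, n = 5, 2 and 6). Exact two-sided permutation tests over libraries gave p = 0.0189 and 0.0192 in the wild types for exercise and corticosterone, and p = 0.0152 and 0.0357 in the KO mice, the last being the smallest p that 2 against 6 libraries allow. After Benjamini-Hochberg adjustment over the 18 tests of 3 hairpins and 6 comparisons, the lowest adjusted p of these exact permutation tests was 0.115, so no arm difference passed. Against KO-water 3, 4 and 6 the miR-30a difference was 0.30 with exercise (exact permutation p = 0.0714) and 0.38 with corticosterone (exact permutation p = 0.2), and against KO-water 1, 2 and 5 it was 0.37 (exact permutation p = 0.0536) and 0.45 (exact permutation p = 0.1). For corticosterone, 2 against 3 libraries allow 10 splits, so 0.1 is the smallest p possible and no result could pass.

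**Figure D5:**
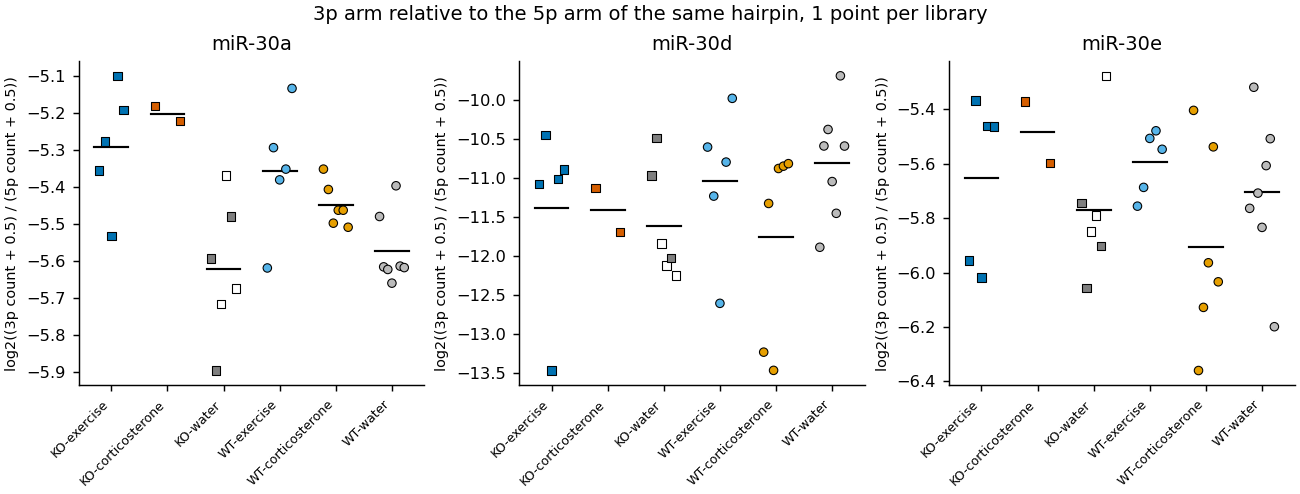
Log2 of (3p count + 0.5) over (5p count + 0.5) for 3 hairpins, 1 point per library; squares are KO, circles WT, open squares KO-water 3, 4 and 6, and bars are group means. For miR-30a the 6 group means run from -5.62 to -5.20; for miR-30d single 3p reads set the spread.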

How the data were processed

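Small RNA from 31 right hippocampi was enriched, adapter-ligated and sequenced on an Ion Torrent S5, per the labels' protocols. The deposited files are 5 tables of raw read counts (whole numbers) over 1966 mature microRNAs, 1 per pair of groups. Per the submitters' processing notes, the authors used the GRCm38 (mm10) build with cutadapt 2.3, BWA, featureCounts of Subread and limma 3.54.1, in no stated order or role; whether counting used strand is not stated there. Columns were matched to samples by the sample code in the labels, and 24 repeated columns were identical. Libraries held 1011285 to 4052174 counts, and no 2 replicates agreed within sampling noise (lowest chi-square per degree of freedom 16.1). The labels call replicates biological; the p-values measure the spread between these libraries.

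The counts of the 2 groups were fitted with edgeR 4.0.16 in R 4.3.3 (filterByExpr, TMM, robust glmQLFit, quasi-likelihood F test), with Benjamini-Hochberg adjustment over all microRNAs tested and calls below 0.05; interactions used the 4 groups involved. Standard errors come from the F statistic. The procedure was also run on simulated counts, drawn independently around a single mean for each group. These held neither the KO-water sets nor variation shared between microRNAs within a group, so calls under such variation were not tested. Full statistics are given for called members, ranges for the others, and values for the other microRNAs with the 5p seed and the 3 nearest in pattern to each of the 3 most abundant members. A few uncalled members were given in full, and levels of mmu-miR-384-3p were added, after their values were seen. Members and lists were chosen with earlier results of these data known. Alternatives were DESeq2 1.42.0, its size factors, no scaling factors, other low-count filters, a joint fit, a block for the replicate number, the code letter as covariate, the main axis of within-group variation (the first principal component of log2 CPM deviations, 49.4% of that variance, from the same counts, with mean 0 in each group so that it changes the error more than the difference), either set of KO-water libraries and leaving out each library. Sequences and hairpin positions are from RefSeq (GRCm38.p6).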

Additional observations from a re-analysis of the deposited data

Results flagged for a closer look

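In 3 of 45 tests of a member within a group of 4 to 10 libraries, the highest or lowest library stood far from the rest of its group by Dixon's ratio; chance flags about 1 in 20 such groups. mmu-miR-30a-5p had 9818 CPM in WT-exercise 1, where the next library had 7573 CPM. mmu-miR-30b-5p had 2522 CPM and mmu-miR-30c-5p 7081 CPM in WT-water 6, where the next lowest libraries had 3707 and 10634 CPM. Without WT-water 6 the calls of mmu-miR-30c-5p against WT-water were kept with either treatment, and the call of mmu-miR-30b-5p with corticosterone was lost.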

How the results depend on the processing

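Members called by edgeR with all libraries of both groups kept their direction in every setting run, but several calls near the threshold were lost; members called under an alternative alone could change sign, as mmu-miR-30d-5p did between the KO-water sets. The share of all microRNAs called in the same fit stands in brackets after each count of members, and it moved too. Members called with WT-exercise (2, at 32.5%) numbered 1 with no low-count filter (9.13%), 1 in the joint fit of all 6 groups (25.7%) and 0 with the replicate block (6.85%), and 1 to 3 with 1 library left out (18.4% to 48.8%). With WT-corticosterone (5, at 41.9%) they numbered 3 without scaling factors (41%), 3 with no filter (14%) and 3 with the block (32.5%), and 3 to 6 with 1 library left out (31.3% to 52.4%; 3 without WT-water 3 or 4). With KO-exercise (1, at 4.02%) they numbered 2 by DESeq2 (7.27%), 0 with no filter (0.783%), 2 in the joint fit (6.38%), 0 with the block (1.35%), 5 with the within-group axis as covariate (23.3%) and 6 with KO-water 3, 4 and 6 alone (32.8%). Leaving out 1 library gave 0 to 3 (2.42% to 5.58%; 0 without KO-exercise 2, 3 without KO-water 5). With KO-corticosterone (0, at 0.521%) they numbered 1 by DESeq2 (1.22%), 1 with the axis (5.03%) and 4 with KO-water 3, 4 and 6 (19.2%). For KO-water over WT-water (0, at 0%) they numbered 2 with the axis (46.8%) and 2 with KO-water 3, 4 and 6 (60.9%), and 0 to 1 with 1 library left out (0% to 29.2%; 1 without KO-water 2). Over all microRNAs that comparison had 0 calls by edgeR, 26 with DESeq2's size factors and 255 with the axis. The interactions (0, at 0%) gave 1 with the axis (28.4%) and 4 with KO-water 3, 4 and 6 (42.3%) for exercise, and 1 (16.8%) and 2 (34%) for corticosterone. The cause was not tested. Under the replicate block mmu-miR-30c-5p stood at 0.65 with WT-exercise (edgeR adjusted p = 0.0604). The deviations of same-numbered libraries from their group means had correlations from -0.67 to 0.71. With 2 to 6 such pairs in a comparison, these values cannot decide whether the numbers pair samples. Without scaling factors the median change over all microRNAs (log2) was -0.07 in place of 0.04 with WT-exercise, -0.07 in place of 0.06 with WT-corticosterone and -0.22 in place of -0.08 for KO-water over WT-water. The code letter could not be a covariate with KO-corticosterone, whose libraries share 1 letter. Depth limits mmu-miR-30d-3p, at 1 to 28 counts per library.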
